A study of Homo sapiens with 80 samples.

Results

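The comparison of 75 s of hypergravity with normal gravity rested on 12 of the 80 libraries of the series, chosen by their treatment labels as the 6 libraries named hypg75s and the 6 named Ctrl. All were made from Jurkat E6-1 cells, a clonal human T lymphocyte leukemia line, held in serological pipettes. Ctrl cells stayed in the pipette for 15 min at 1 g. Cells of hypg75s spent 13 min and 45 s at 1 g and then 75 s at 9 g on a custom pipette centrifuge, so that both groups had been in the pipette for the same time when they were eluted into lysis buffer. Total RNA was depleted of ribosomal RNA and made into strand-specific paired-end libraries, which keep RNAs that lack a poly-A tail. The total count per library ran from 27314458 to 36083081 in Ctrl and from 28280044 to 36404107 in hypg75s. Nothing in the labels says that the 6 libraries of a group came from separate cultures, so p-values measure the spread between these libraries, which may be technical. Further libraries entered only as points of reference, namely 6 of Ctrl60, which stayed for 60 min at 1 g, and 6 each of the shorter exposure hypg20s and of the longer exposures hypg3 and hypg5. Names of the Ctrl60 libraries mention HEPES, and whether the other groups had it as well was not settled here.

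T cells sense force through the actin cytoskeleton, through ion channels that open when the membrane is stretched, and through links between the cytoskeleton and the nuclear lamina that reach the chromatin. An activated T cell first makes more RNA of the immediate early genes, such as the FOS, JUN and EGR transcription factors, and a cell under protein-damaging stress makes more RNA of the chaperones that heat shock factor HSF1 controls. Short exposures are measured as total RNA, so a change in level may come from synthesis, processing or decay.

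The cells carried the T cell program in both groups. All 15 T cell markers, among them CD3D, CD3E, CD3G, LCK and TRAC, were detected in every library, and their summed level was 5800 to 5900 TPM in Ctrl and 5610 to 6060 TPM in hypg75s. Of 18 markers of B cells, myeloid, erythroid, epithelial and other cells, EPCAM, PPBP, CSF1R and HBB had no count in any of the 12 libraries. The sum of the 18 was 147 to 155 TPM in Ctrl and 146 to 159 TPM in hypg75s, and nearly all of it came from CD79A and PECAM1.

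After 75 s at 9 g many genes differed from Ctrl by small amounts. With edgeR's quasi-likelihood test and a Benjamini-Hochberg adjusted p below 0.05, called from here on, 5086 of 16261 genes tested were called, or 31.3%. Of these, 2738 were higher (16.8%) and 2348 were lower (14.4%). The median size of the log2 fold change was 0.256 among the higher genes, with quartiles of 0.168 and 0.413, and 0.295 among the lower genes, with quartiles of 0.195 and 0.411. Changes past 2-fold were few, with 21 higher (0.129%) and 3 lower genes (0.0184%), and with no filter on low counts 73 and 27. These counts depended on single libraries. The higher count was 35, 43, 39 and 32 without Ctrl replicate 1, 2 or 5 or hypg75s replicate 20, and the lower count was 5 without Ctrl replicate 4 or hypg75s replicate 19, 21 or 23. With all libraries, the 3 lower genes were EGR3, RAB20 and the long noncoding RNA ENSG00000264558, all below 1 CPM on average. In 1346 genes every hypg75s library was above every Ctrl library (8.28%), and in 1139 every one was below (7.0%).

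The direction of a change went with the base composition of the gene. GC content, the share of G and C among the bases of a gene's exons, can affect how well its fragments are amplified and sequenced. In the lowest 20% of genes by exon GC content (23.5% to 41.6%), 0.42% of the genes were higher and 37.3% were lower, with a median log2 fold change of -0.25. In the highest 20% of genes (58.1% to 83.3%), 35.2% were higher and 1.2% were lower, with a median of 0.11. Across genes the log2 fold change and exon GC content had a Spearman rho of 0.572 over the genes with a known GC content. This is a description, since genes are not independent replicates and all share the same 12 libraries.

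The libraries themselves showed the same difference. A GC contrast was computed for each library as the mean log2 level of the 20% of genes highest in GC content minus that of the 20% lowest. It was 0.361 ± 0.173 in Ctrl and 0.702 ± 0.148 in hypg75s (SD, n = 6 each), a difference of 0.341 with an exact permutation p of 0.00433 (two-sided, adjusted p = 0.0173 over 8 library measures). Ctrl libraries ran from 0.0776 to 0.5184 with a median of 0.405, and hypg75s libraries from 0.5183 to 0.935 with a median of 0.68, so the groups overlapped slightly, with the lowest hypg75s library just below the highest Ctrl library. Against Ctrl60, with a mean of 0.372, the difference was 0.33 (adjusted p = 0.026, exact permutation test). The means of groups not compared by a test were 0.679 in hypg20s, 0.86 in hypg3 and 0.564 in hypg5. Whether the contrast arose in the cells or in the preparation of the libraries was not tested.

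**Figure D1:**
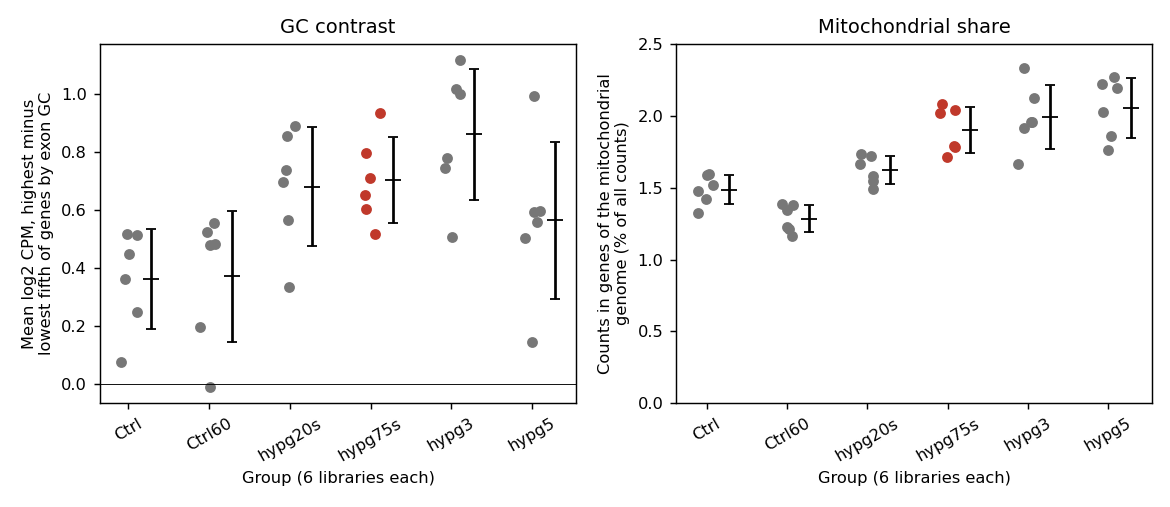
GC contrast (log2 level of the highest minus the lowest 20% of genes by exon GC content) and share of counts in the mitochondrial genome (percent) by group, with a point for each library and the mean ± SD as bars. In GC contrast the lowest hypg75s library (0.5183) lies just below the highest Ctrl library (0.5184), and in mitochondrial share all hypg75s libraries (1.711% to 2.083%) lie above Ctrl.

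The comparisons of hypg75s with other groups were therefore also made after a correction for exon GC content. It removed from each library the departure of its smooth trend of expression with GC content from the mean trend of the libraries compared. With it, 15471 genes that have a GC value were tested and 3744 were called (24.2%), of which 1561 were higher (10.1%) and 2183 were lower (14.1%). Genes called higher made up 53.8% of all calls without the correction and 41.7% with it. Of the 2675 higher genes that could be tested both ways, 1234 stayed higher with the correction (46.1%), 1435 were no longer called and 6 were called lower. Of the 2259 lower genes, 1022 stayed lower (45.2%), 1237 were no longer called and 0 were called higher. The correction added 327 genes to the higher and 1155 to the lower calls. The 6 genes that turned were SCAF1, HMG20B, TMEM250, PPDPF, KCNH2 and PIM3, with log2 fold changes of 0.08 to 0.09 without and of -0.11 to -0.09 with the correction.

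**Figure D2:**
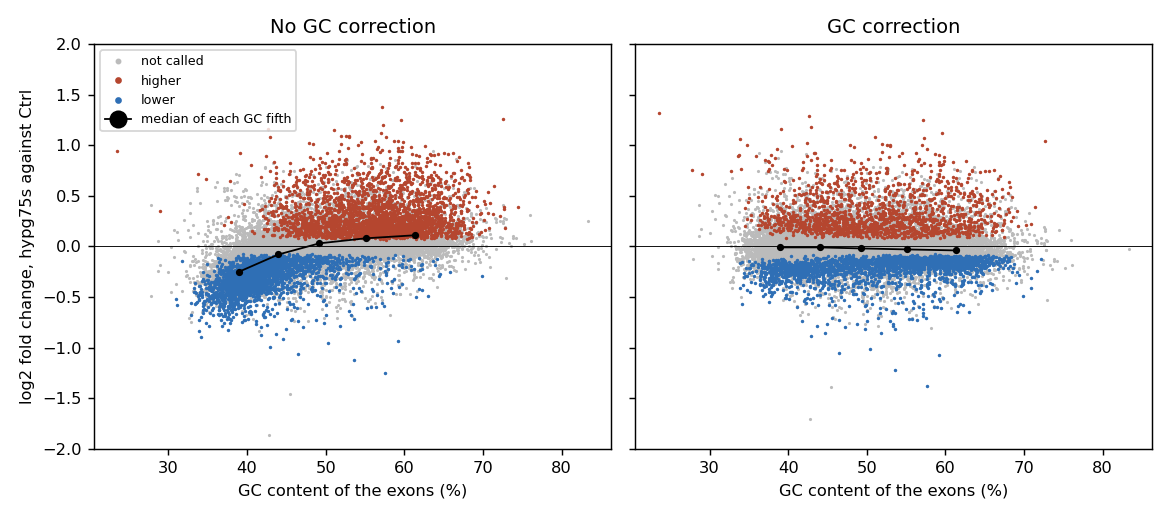
Log2 fold change of hypg75s against Ctrl (y) against exon GC content in percent (x), each point a gene, without the GC correction (left) and with it (right); line marks are medians of groups of 20% of the genes by GC content. Without the correction the medians climb from -0.25 in the lowest to 0.11 in the highest group, and with it they lie between -0.04 and -0.01.

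The second difference between the libraries was in RNA of the mitochondrial genome, a small circular DNA with 13 protein genes of the respiratory chain, which is transcribed in full from both strands. Its share of all counts was 1.487% ± 0.103 in Ctrl and 1.904% ± 0.160 in hypg75s (SD, n = 6 each; exact permutation p = 0.00216, the smallest this design allows, adjusted p = 0.0173). The shares were 1.327% to 1.598% in Ctrl and 1.711% to 2.083% in hypg75s and did not overlap. None of the other 6 library measures, which were total counts, the shares of protein-coding, long noncoding, small noncoding and pseudogene counts, and the contrast by exon length, differed at an adjusted p of 0.05.

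Of the 15 protein and ribosomal RNA genes of the mitochondrial genome, 11 rose (73.3%, against 16.8% of all genes, and 10.1% with the correction) and none fell, with a median log2 fold change of 0.34, and the same counts were found with the correction, with a median of 0.40. All genes tested had medians of 0.00 and -0.02. MT-ND6, a subunit of respiratory complex I and the sole protein gene read from the minus strand (MT:14149-14673, hg38), had 56.99 CPM in the lowest, 87.84 in the median and 95.07 in the highest Ctrl library (CPM, TMM-scaled counts per 1000000, throughout). In hypg75s it had 153.3, 174.3 and 220.5 CPM, so that the lowest hypg75s library lay well above the highest Ctrl library. This was a 2.24-fold rise (log2 fold change 1.16 ± 0.13, SE, adjusted p = 1.86e-05) and a log2 fold change of 1.29 with the correction (adjusted p = 6.39e-07).

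Mitochondrial messages from the plus strand rose less. MT-ND1, another complex I subunit, went from 1394 to 1678 CPM in Ctrl (median 1557) to 1955 to 2258 CPM in hypg75s (median 2153), a log2 fold change of 0.48 ± 0.05 (adjusted p = 1.92e-05). MT-CO1, a catalytic subunit of complex IV, had a log2 fold change of 0.36 ± 0.06 (adjusted p = 0.000799). MT-CO2 and MT-ND3 were not called, with log2 fold changes of 0.14 ± 0.06 (adjusted p = 0.0974) and 0.07 ± 0.06 (adjusted p = 0.357). The ribosomal RNAs MT-RNR1 and MT-RNR2, which the depletion step removes, varied too much between libraries to be read (0.292 to 91.97 CPM for MT-RNR1 in Ctrl alone) and were not called.

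By strand, all 8 minus-strand genes tested (MT-ND6 and 7 transfer RNAs) rose, with a median log2 fold change of 0.80, and 13 of 21 plus-strand genes rose (61.9%) and 1 fell, with a median of 0.34, beside the same 16.8% of all genes. With the correction the counts were 8 of 8 and 13 of 21, with medians of 0.94 and 0.40. The split by strand was made after the values were seen. The transfer RNAs were at low levels: MT-TE, for example, had a median of 1.41 CPM in Ctrl and 2.79 CPM in hypg75s (log2 fold change 0.92 ± 0.17, adjusted p = 0.000844). MT-TP, better covered, had a median of 8.11 CPM in Ctrl and 13.6 CPM in hypg75s with no overlap (log2 fold change 0.72, and 1.06 with the correction). Counting used the strand of the reads, and whether the short genes share fragments with unprocessed neighbours was not tested. A single plus-strand gene, MT-TV, was called lower without the correction (-0.67 ± 0.22, adjusted p = 0.0288) and was not called with it (adjusted p = 0.0849).

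**Figure D3:**
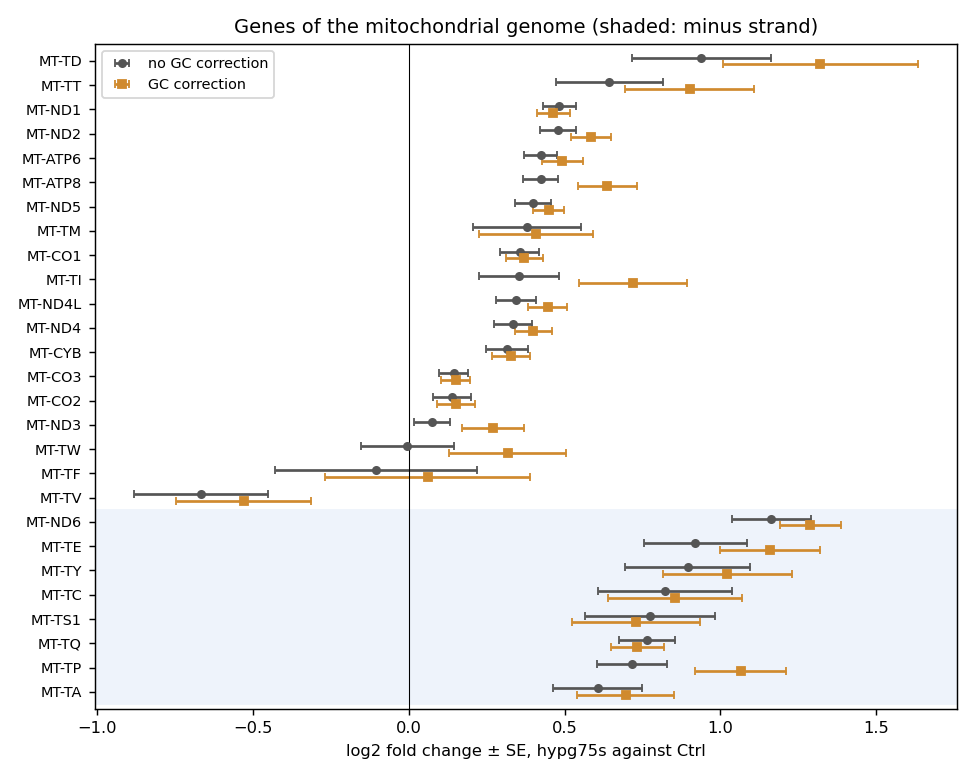
Log2 fold change ± SE (x) of mitochondrial genes (y), hypg75s against Ctrl, without the GC correction (circles) and with it (squares). Genes are sorted by strand and then by the uncorrected log2 fold change, and minus-strand genes are shaded. MT-ND6 (1.16) and the other minus-strand genes had larger rises than most plus-strand genes such as MT-ND1 (0.48) and MT-CO1 (0.36).

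Among the genes of the respiratory chain that lie in the nucleus, more were called lower than higher, and many were not called. Of 79 tested, 33 were lower (41.8%, against 14.4% of all genes) and 2 (NDUFA7 and NDUFA13) were higher, with a median log2 fold change of -0.10, and with the correction 34 of 74 were lower (45.9%, against 14.1% of all genes) and 0 higher, with a median of -0.13. Of the 77 mitochondrial ribosomal proteins tested, 36 were lower (46.8%) and 1 was higher (MRPL38, 0.29), and with the correction 41 (53.2%) and 1 (MRPL46, 0.30), beside the same shares of all genes. MRPL1, of the large mitochondrial ribosomal subunit, was among the 10 largest falls, at 14.85 to 18.44 CPM in Ctrl (median 15.47) and 8.91 to 10.5 CPM in hypg75s (median 10.1), a log2 fold change of -0.66 ± 0.07 (adjusted p = 1.08e-05) and of -0.43 with the correction.

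Chromatin regulators had the highest share of higher genes among the lists of nuclear protein genes, with and without the correction. Of 48 tested, 19 were higher (39.6%) and 5 were lower, and with it 17 of 45 were higher (37.8%) and 5 lower, against 16.8% and 10.1% of all genes for the higher calls. Their median log2 fold changes were close to those of all genes, at 0.05 and 0.01, so members moved both ways. SETD1B, a histone H3 lysine 4 methyltransferase (chr12:121804009-121832656), had 61.62, 71.82 and 77.91 CPM in the lowest, median and highest Ctrl library and 104.3, 115.7 and 127.6 CPM in hypg75s. The groups were far apart, with a log2 fold change of 0.73 ± 0.07 (adjusted p = 4.34e-06) and of 0.58 with the correction (adjusted p = 3.02e-05). KMT2D, an enzyme of the same family that acts at enhancers, went from 318.5 to 371.8 CPM (median 339.0) to 497.1 to 631.1 CPM (median 522.6), a log2 fold change of 0.65 ± 0.06 (adjusted p = 7.14e-06) and of 0.52 with the correction.

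The further members of this enzyme family that rose in both fits were KMT2B (0.45, and 0.30 with the correction) and SETD1A (0.41 and 0.25). The H3 lysine 27 demethylase KDM6B (0.51 and 0.36), the SWI/SNF subunit ARID1A (0.47 and 0.38), and the acetyltransferases CREBBP (0.29 and 0.20) and EP300 (0.28 and 0.28) were also called higher both ways. Lower in both fits were the nucleosome remodellers SMARCA5 (-0.45 and -0.18) and SMARCA2 (-0.28 and -0.23). SMARCC1 (-0.13) and EZH2 (-0.12) were lower without the correction. HDAC2, a histone deacetylase, was lower without the correction (-0.46) and not called with it (-0.16, adjusted p = 0.233). KMT2A, the founding member of the family, was called only with the correction (0.11 and 0.20).

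Base composition of the promoters differed as well between the genes called higher and lower. The promoters of KMT2D and THEMIS, the latter described further on among the falls, are shown as examples of a gene that rose and a gene that fell. Each is the RefSeq window (GRCh38.p14) from 250 bases before to 50 bases after the start, 5′ to 3′ on the strand of the gene, with each CG in capitals. The KMT2D window (chr12:49060745-49061044, minus strand) has 65.0% GC and 27 CG, and the THEMIS window (chr6:127855139-127855438, minus strand) has 27.7% GC and 0 CG. The THEMIS window belongs to a start inside the span that the count table gives the gene (chr6:127708072-127918631).
KMT2D: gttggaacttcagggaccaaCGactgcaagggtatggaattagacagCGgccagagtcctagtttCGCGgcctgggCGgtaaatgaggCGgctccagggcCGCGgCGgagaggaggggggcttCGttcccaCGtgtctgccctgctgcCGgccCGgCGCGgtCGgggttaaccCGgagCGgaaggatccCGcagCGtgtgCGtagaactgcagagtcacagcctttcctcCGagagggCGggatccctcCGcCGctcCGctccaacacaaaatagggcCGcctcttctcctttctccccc
THEMIS: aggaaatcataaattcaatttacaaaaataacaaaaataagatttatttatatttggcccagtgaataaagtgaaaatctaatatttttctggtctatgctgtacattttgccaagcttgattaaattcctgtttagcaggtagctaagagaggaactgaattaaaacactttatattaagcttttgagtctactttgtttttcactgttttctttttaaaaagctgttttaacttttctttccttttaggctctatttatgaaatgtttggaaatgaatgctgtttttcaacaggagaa
A CG occurs in 96.0% of all 35116 such windows, in 99.6% of those of the genes tested and in 99.5% of those of the genes called lower. The THEMIS window, with 0 CG, is therefore not typical of the genes that fell. Genes called higher had a median of 68.3% GC and 29 CG in this window, genes called lower 63.0% and 25, and all genes tested 65.3% and 26. With the correction the medians were 66.7% GC and 28 CG for the higher and 65.0% and 27 for the lower genes. The exon medians of these groups were 50.7% and 53.1% GC, against 56.6% and 41.4% without it.

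Host genes of miRNAs were among the largest rises. A host gene is a long RNA from which the hairpins of miRNAs are cut in the nucleus, and the libraries measured the long RNA and not the mature miRNA. Of the 10 largest rises of genes averaging 10 CPM or more, 3 were such hosts: MIR223HG, MIR142HG and MIRLET7BHG. Selected mature products of these and of MIR29B2CHG are given from RefSeq (GRCh38.p14), with the seed, bases 2 to 8, in capitals. Both miR-29 3p arms share a seed, and both let-7 5p arms share another.
hsa-miR-29b-3p: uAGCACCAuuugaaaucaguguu
hsa-miR-29c-3p: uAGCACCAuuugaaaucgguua
hsa-let-7a-5p: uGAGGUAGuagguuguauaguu
hsa-let-7b-5p: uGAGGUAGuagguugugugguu
hsa-miR-142-3p: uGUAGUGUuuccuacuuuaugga
hsa-miR-142-5p: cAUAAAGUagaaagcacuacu
hsa-miR-223-3p: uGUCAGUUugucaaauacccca
hsa-miR-223-5p: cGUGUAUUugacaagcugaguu

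MIR29B2CHG, host of miR-29b-2 and miR-29c (chr1:207801518-207879115), had 84.69, 96.82 and 107.4 CPM in the lowest, median and highest Ctrl library and 128.7, 148.7 and 171.7 CPM in hypg75s. Its log2 fold change was 0.64 ± 0.07 (adjusted p = 1.91e-05) and 0.59 with the correction (adjusted p = 1.63e-05). MIR142HG, whose miRNA is particular to blood cells, went from 27.88 to 36.22 CPM (median 33.51) to 44.67 to 56.94 CPM (median 49.81), a log2 fold change of 0.66 ± 0.08, and of 0.50 with the correction. MIRLET7BHG rose from 15.06 to 18.96 CPM (median 16.27) to 23.83 to 31.03 CPM (median 25.16), a log2 fold change of 0.66 ± 0.07, and of 0.49 with the correction. None of these hosts, picked with their values known, overlapped between the groups (8.28% of all genes lay wholly above). MIR223HG had 13.12 to 15.91 CPM (median 14.42) in Ctrl and 21.51 to 24.78 CPM (median 22.85) in hypg75s (log2 fold change 0.69 ± 0.06, adjusted p = 3.25e-06), and could not be corrected because its GC content was not known.

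Of all 29 tested genes whose symbol has the form MIR...HG, a list drawn up after these values were seen, 11 rose (37.9%, against 16.8% of all genes) and 1 fell, and with the correction 9 of 24 rose (37.5%, against 10.1%) and 1 fell. The gene that fell was MIR210HG, host of the hypoxia-linked miR-210, with a log2 fold change of -0.40 ± 0.08 (adjusted p = 0.00254) and of -0.54 with the correction. MIR17HG, host of the miR-17-92 cluster and a target of MYC, was called both ways, at 0.21 ± 0.05 and at 0.50 with the correction, and its groups overlapped. Long noncoding RNAs as a class had 339 higher and 47 lower genes of 2389 tested (14.2% and 1.97%, both below the 16.8% and 14.4% of all genes), and 232 and 58 of 2109 with the correction (11.0% and 2.75%). Of the 15 nuclear long noncoding RNAs listed by name, 4 rose (26.7%) and none fell, among them MIAT (0.36 and 0.29), and with the correction 5 of 13 rose (38.5%). NEAT1, the scaffold of paraspeckles, was not called (0.47 and 0.55), nor was MALAT1 (-0.22 and -0.03).

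Numbered zinc finger genes, most of them KRAB-type repressors of transcription, had more higher than lower calls. Of 398 tested, 88 were higher and 26 were lower (22.1% and 6.53%, against 16.8% and 14.4% of all genes), and with the correction 73 and 16 of 391 (18.7% and 4.09%, against 10.1% and 14.1%). When each library was left out, 74 to 89 were higher and 15 to 34 lower without the correction. On chromosome 19, where many lie in clusters, 14.2% of 183 were higher, below the share of all genes, and elsewhere 28.8% of 215. With the correction these shares were 16.0% and 21.0%. The difference between the 2 sets was not tested, and the split was made after the values were seen. ZNF587B, at 20.98 to 26.12 CPM in Ctrl and 29.35 to 37.21 CPM in hypg75s, was among the largest rises in both fits (0.55 ± 0.07 and 0.57). Other genes of that set were TTC34 (0.68 and 0.53), NECAB3 (0.66 and 0.52), the nuclear receptor NR6A1 (0.66 and 0.60) and GIMAP5, a GTPase that supports lymphocyte survival (0.60 and 0.63). All 8 named rises of both fits, chosen by their size, had no overlap between the groups (8.28% of all genes lay wholly above) and were called in the same direction against Ctrl60.

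**Figure D4:**
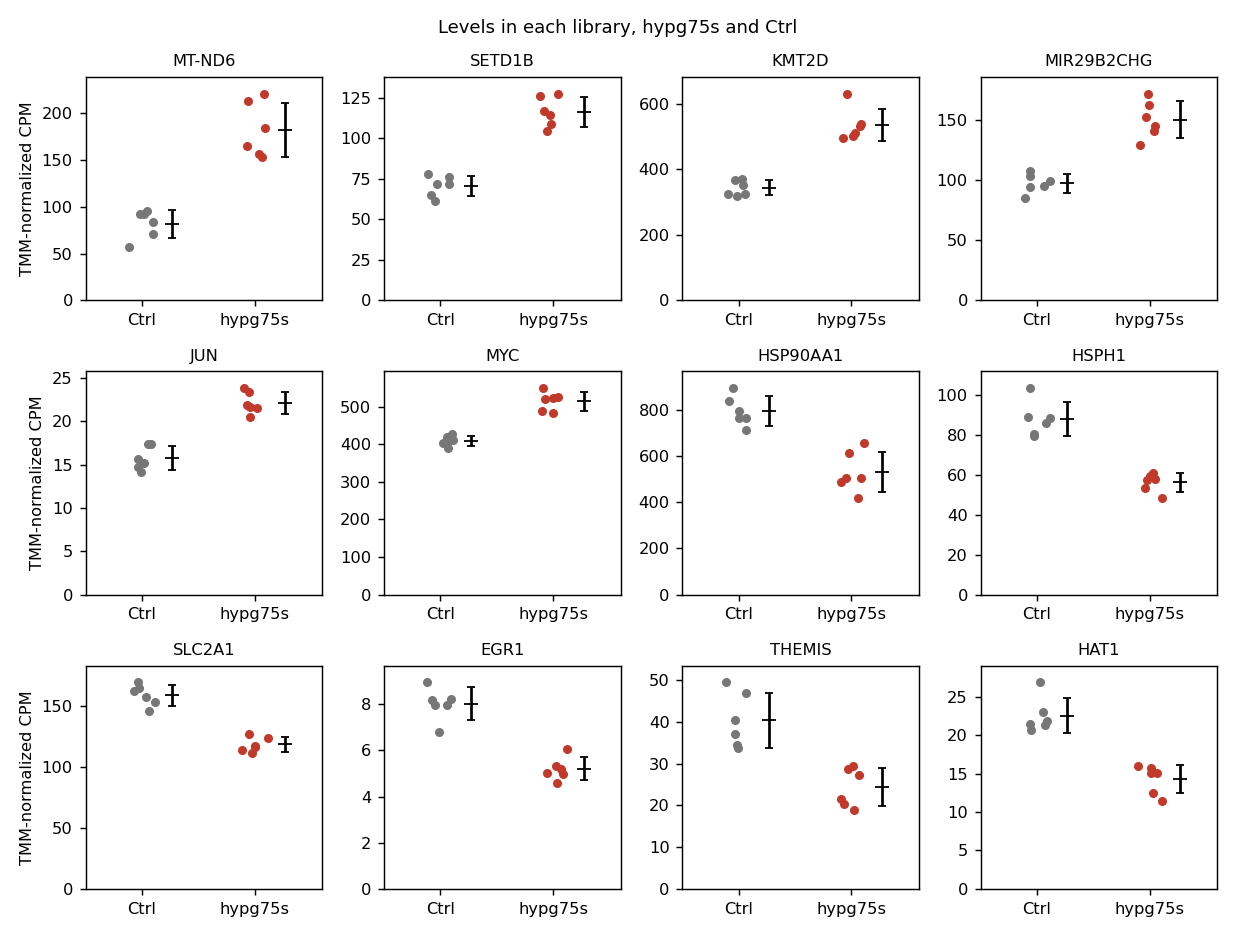
Levels of 12 genes (CPM, y) in each Ctrl and hypg75s library (points), with the mean ± SD of each group. MT-ND6, SETD1B, KMT2D, MIR29B2CHG, JUN and MYC were higher and HSP90AA1, HSPH1, SLC2A1, EGR1, THEMIS and HAT1 lower in hypg75s. The groups did not overlap in any of these 12 genes, which were chosen with results of these data known, nor in 15.3% of all genes tested.

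Most HSF1 target chaperones were lower. Of 21 tested, 13 were lower (61.9%, against 14.4% of all genes) and 1 was higher, with a median log2 fold change of -0.19, and with the correction 16 of 20 were lower (80.0%, against 14.1%) and none was higher, with a median of -0.23. HSP90AA1, the inducible cytosolic HSP90, had 711.2, 780.6 and 894 CPM in the lowest, median and highest Ctrl library and 416.6, 504.6 and 655 CPM in hypg75s. All hypg75s libraries were below all Ctrl libraries, with a log2 fold change of -0.57 ± 0.09 (adjusted p = 0.00037) and of -0.54 with the correction (adjusted p = 0.00022). HSPH1, an HSP110 nucleotide exchange factor, went from 79.57 to 103.4 CPM (median 87.1) to 48.14 to 61.05 CPM (median 57.71), a log2 fold change of -0.63 ± 0.07 (-0.37 with the correction).

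The HSP70 co-chaperone DNAJA1 fell from 180.2 to 210.0 CPM (median 187.3) to 128.5 to 146.2 CPM (median 131.8), a log2 fold change of -0.48 ± 0.05 (adjusted p = 6.34e-06; -0.32 with the correction). Constitutive HSPA8 fell by 0.30 ± 0.05 on the log2 scale, the mitochondrial chaperonins HSPD1 and HSPE1 fell by 0.37 and 0.36, and HSP90AB1 by 0.14 ± 0.05. The member called higher was HSPA1B, an inducible HSP70 (0.21 ± 0.08, adjusted p = 0.0467), which was not called with the correction (0.08, adjusted p = 0.443) and overlapped between the groups. HSPA1A, its close copy, was below the filter on low counts in both groups, and reads could be split between the pair. DNAJB1, the inducible HSP40, had a log2 fold change of -0.01 ± 0.03 (adjusted p = 0.89) and no GC value.

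The promoters of the chaperones were searched for a pair of facing heat shock units, GAANNTTC or TTCNNGAA, each the same on both strands and allowed to overlap. Of the 20 members with a promoter window, 7 had a match (35.0%), as did 13.5% of all 35116 windows and 9.89% of those of the genes tested. The list was drawn up as HSF1 targets, so its larger share is no test. DNAJA1 and HSPA8, which fell, had a match, and so did HSPA1B, the member called higher. The falling genes HSP90AA1, HSPH1, HSPD1, HSPE1 and HSP90AB1 had none in these windows. The DNAJA1 window (chr9:33025023-33025322, plus strand, GRCh38.p14) is shown because it had 3 matches, which are in capitals, and it was picked after its values were seen.
DNAJA1: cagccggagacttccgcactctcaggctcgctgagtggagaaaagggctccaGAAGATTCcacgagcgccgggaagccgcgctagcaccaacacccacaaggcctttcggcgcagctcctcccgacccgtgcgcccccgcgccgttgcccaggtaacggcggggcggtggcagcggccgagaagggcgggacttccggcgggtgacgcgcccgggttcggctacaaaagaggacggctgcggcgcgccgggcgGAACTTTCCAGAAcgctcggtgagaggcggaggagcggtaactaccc
A match describes the letters and not the binding of HSF1.

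Many genes of the ribosome were lower as well. Of 79 cytosolic ribosomal proteins 36 were lower (45.6%, against 14.4% of all genes), with a median of -0.11, and with the correction 46 of 77 were lower (59.7%, against 14.1%), with a median of -0.16. RPL7 went from 355.1 to 458.9 CPM (median 390.2) to 262.7 to 316.6 CPM (median 283), a log2 fold change of -0.46 ± 0.06 (adjusted p = 6.65e-05; -0.41 with the correction), and RPS24 fell by 0.44 ± 0.06. Ribosomal protein genes have many pseudogenes that share sequence with them. When exon length was corrected for in place of GC content, fewer cytosolic ribosomal proteins were lower, at 17. Of all genes 2227 were then lower, against 2348 without a correction. Across genes, log2 fold change and exon length had a Spearman rho of -0.0748 without and 0.127 with the GC correction. Genes called higher and lower with the GC correction had median exon lengths of 5845 and 3608 bases, and all genes tested 4397. Of 40 genes of ribosome biogenesis 18 were lower (45.0%) and 2 higher (22 and 1 of 39 with the correction, 56.4% lower), with the nucleolar chaperone NPM1 at -0.45 ± 0.04 and no GC value. NSA2 and NOC3L, both needed to build the large ribosomal subunit, were among the 10 largest falls (-0.70 ± 0.11 and -0.70 ± 0.13, and -0.38 and -0.42 with the correction).

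In other lists the correction took away many of the calls. Of all genes 14.4% were lower without and 14.1% with it. hnRNP proteins, which package nascent RNA, had 17 of 25 lower without (68.0%) and 7 of 25 with it (28.0%), and none higher in either. SR proteins and splicing kinases had 13 lower (39.4%) and 5 higher of 33 without, and 3 lower (9.09%, below the share of all genes) and 5 higher with it. Proteasome subunits had 18 of 38 lower (47.4%) and then 10 of 36 (27.8%), although their median log2 fold change stayed alike (-0.10 and -0.099). DNA repair genes had 15 of 28 lower (53.6%) and then 8 of 25 (32.0%), with medians of -0.2 and -0.01. Nuclear pore genes had 12 of 31 (38.7%) and then 2 of 31 (6.45%, below the share of all genes). The core spliceosome kept a similar count, with 15 of 38 (39.5%) and then 16 of 37 (43.2%) lower.

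More genes of the mitotic spindle and of chromosome structure were lower than higher, and fewer of them were called with the correction. Of 56 spindle and kinetochore genes 29 were lower (51.8%, against 14.4% of all genes) and 4 higher, and with the correction 18 (32.1%, against 14.1%) and 4, and of 19 cohesin and condensin genes with CTCF 11 were lower (57.9%) and 1 higher (MAU2, 0.09), and 10 (52.6%) and 0 with the correction. HMMR, which binds spindle microtubules, fell from 9.30 to 14.8 CPM (median 11.1) to 5.05 to 7.68 CPM (median 6.64), a log2 fold change of -0.83 ± 0.14 (adjusted p = 0.000434; -0.55 with the correction). NCAPG, a condensin subunit, had -0.58 ± 0.12 and -0.32, and the cohesin subunit STAG2 had -0.58 ± 0.20 and -0.36 with groups that overlapped. The spindle checkpoint kinase TTK (-0.64 ± 0.17 and -0.46) and CKAP2, a spindle protein (-0.68 ± 0.10 and -0.38), were among the named falls. In contrast, the mitotic kinesin KIF18B was higher, at 129.4 to 139.3 CPM in Ctrl and 161.6 to 166.4 CPM in hypg75s (0.33 ± 0.03, adjusted p = 1.7e-06; 0.19 with the correction). In bulk RNA, fewer cells in mitosis and less of these RNAs per cell cannot be told apart.

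Among the largest falls of genes averaging 10 CPM or more, THEMIS, which tunes T cell receptor signals in thymocytes, had 33.83, 38.79 and 49.55 CPM in the lowest, median and highest Ctrl library and 18.93, 24.37 and 29.56 CPM in hypg75s. Without overlap, its log2 fold change was -0.71 ± 0.13 (adjusted p = 0.00092) and -0.45 with the correction (adjusted p = 6.84e-05). HAT1, which acetylates newly made histone H4, went from 20.71 to 26.91 CPM (median 21.66) to 11.48 to 16.04 CPM (median 15.04), a log2 fold change of -0.64 ± 0.09 (-0.45 with the correction). The remaining falls named by size in either fit were ZCRB1 (-0.71, no GC value), ARHGAP15 (-0.69 and -0.45), the actin capping subunit CAPZA2 (-0.67 and -0.41), ANXA1 (-0.67 and -0.38), ZC3H13 of the m6A writer complex (-0.65 and -0.45), SHLD2 of the shieldin complex (-0.61 and -0.51) and GPN3 (-0.44 and -0.47).

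Of the 10 largest falls, which were chosen by their size, 8 did not overlap between the groups, and ANXA1 and ZC3H13 did (7.0% of all genes lay wholly below). All 10 had an exon GC content of 34.2% to 40.3% where it was known, and all 9 with a value were also called with the correction, at log2 fold changes of -0.448 to -0.378. The 10 largest rises spanned 33.8% to 63.6%, none overlapped (8.28% of all genes lay wholly above), and all 9 with a value were called with the correction. The third Ctrl library had the lowest GC contrast (0.0776) and the highest level of many falling genes. Without it, 2252 genes were higher and 2067 lower, 28 and 3 of them past 2-fold, and NOC3L (-0.59), ANXA1 (-0.55) and TTK (-0.48) were still called.

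The gene of the main glucose transporter and that of an enzyme which holds glucose in the cell fell. SLC2A1, which encodes the transporter GLUT1, went from 145.5 to 169.5 CPM (median 159.9) to 111.4 to 127 CPM (median 117), a log2 fold change of -0.41 ± 0.04 (adjusted p = 4.02e-06) and of -0.51 with the correction (adjusted p = 3.15e-07). HK2, hexokinase 2, fell by 0.31 ± 0.03 on the log2 scale (-0.38 with the correction). Of 19 glycolysis genes 3 were lower (15.8%, near the 14.4% of all genes), and 8 with the correction (42.1%, against 14.1%), and none was higher in either. Of 16 genes of the hypoxia inducible factor axis, 6 were lower (37.5%) and 3 higher (18.8%, against 16.8% of all genes), and 5 (31.2%) and 1 with the correction. ANKRD37, a hypoxia target, fell from 6.08 to 7.28 CPM (median 6.49) to 3.29 to 4.90 CPM (median 3.71), by 0.74 ± 0.10 on the log2 scale (-0.73 with the correction), and HIF1A itself by 0.47 ± 0.12 (-0.23).

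Immediate early genes were called in both directions. Of 27 tested, 5 were higher and 6 lower (18.5% and 22.2%, against 16.8% and 14.4% of all genes), and with the correction 2 were higher (JUN and MYC) and 7 lower (7.41% and 25.9%, against 10.1% and 14.1%). JUN, a subunit of AP-1, went from 14.21 to 17.42 CPM (median 15.42) to 20.51 to 23.86 CPM (median 21.78), a log2 fold change of 0.50 ± 0.06 (adjusted p = 7.24e-05; 0.38 with the correction). MYC, a driver of growth in leukemic T cells, rose from 389.2 to 426.1 CPM (median 410.2) to 483.2 to 550.0 CPM (median 521.3), with 0.34 ± 0.03 and 0.24. Neither overlapped between the groups. KLF2 (0.34), JUND (0.32) and ATF3 (0.20) were called higher without the correction and not with it.

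EGR1, a transcription factor induced by receptor signals, fell from 6.77 to 8.96 CPM (median 8.09) to 4.61 to 6.08 CPM (median 5.11), a log2 fold change of -0.61 ± 0.08 (adjusted p = 7.87e-05; -0.72 with the correction). EGR3, from the same family, had medians of 0.988 CPM in Ctrl and 0.523 CPM in hypg75s (-1.13 ± 0.23, adjusted p = 0.00204; -1.22 with the correction). Others lower in both fits were KLF6 (-0.20 and -0.21), KLF10 (-0.15 and -0.18) and the phosphatase DUSP2 (-0.14 and -0.30). FOS had 1.34 to 1.82 CPM in Ctrl and 1.23 to 2.08 CPM in hypg75s (0.02 ± 0.13, adjusted p = 0.926). IER2 was not called without the correction (-0.05, adjusted p = 0.201) and was lower with it (-0.20, adjusted p = 0.000546).

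**Figure D5:**
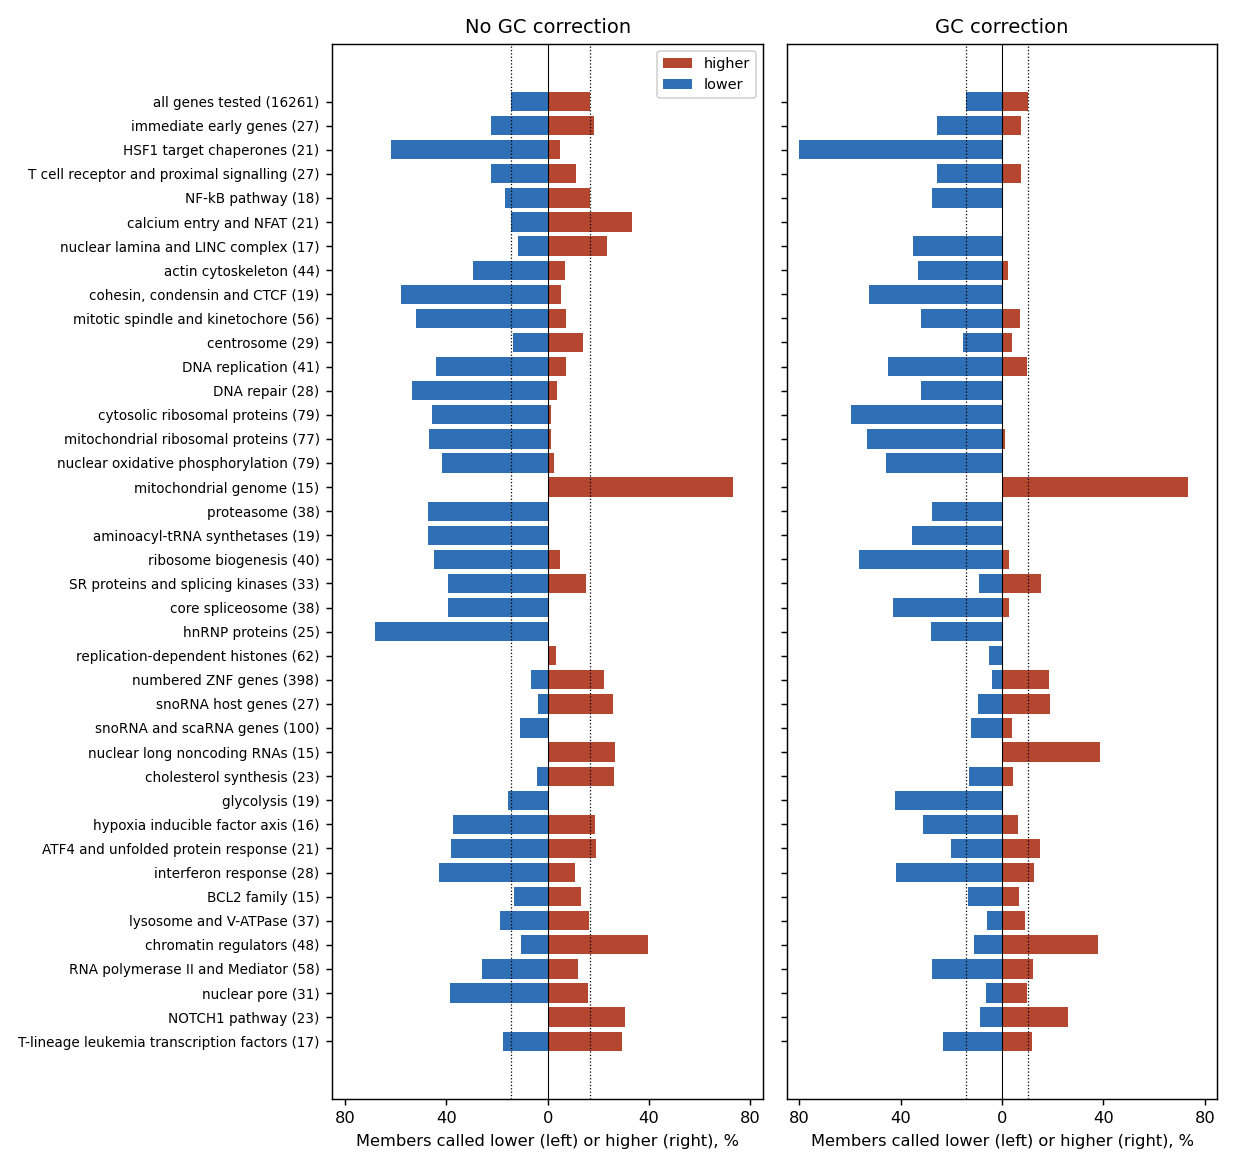
Share of the tested members of each gene list (percent, x) called lower (left) and higher (right) in hypg75s against Ctrl, without and with the GC correction; dotted lines give the share of all genes tested and the number tested stands in parentheses. The mitochondrial genome (73.3% higher) and chromatin regulators (39.6% higher) lie beyond all genes on the higher side, and HSF1 target chaperones (61.9% lower, 80.0% with the correction) on the lower side.

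Genes of force sensing moved by small amounts. Of 14 tested mechanosensitive and volume-regulated channels 5 were higher (35.7%, against 16.8% of all genes) and 0 lower, and with the correction 3 (21.4%, against 10.1%) and 1. PIEZO1, a stretch-activated cation channel, went from 402.8 to 426.7 CPM (median 416.4) to 488.8 to 531.4 CPM (median 497.2), a log2 fold change of 0.29 ± 0.03 (adjusted p = 1.43e-05) and of 0.14 with the correction (adjusted p = 0.00978). PKD1, polycystin-1, rose by 0.43 ± 0.05 and 0.25. Of 44 genes of the actin cytoskeleton 13 were lower (29.5%, against 14.4% of all genes) and 3 higher, and with the correction 14 (33.3%, against 14.1%) and 1 of 42, and TMSB4X, which binds actin monomers, fell by 0.20 ± 0.03 (-0.29). Of 17 genes of the nuclear lamina and its links to the cytoskeleton 4 were higher (23.5%) and 2 lower (11.8%), but 0 were higher and 6 lower (35.3%) with the correction. Against Ctrl60 3 were higher and 4 lower (17.6% and 23.5%, against 14.7% and 14.1% of all genes). Leaving out each library gave 2 to 4 in either direction. LMNB1 changed from -0.15 (adjusted p = 0.059) to -0.21 with the correction (adjusted p = 0.0119). Calcium entry and NFAT genes had 7 higher (33.3%) and 3 lower (14.3%) of 21 without and none called with the correction. Without the correction, 4 to 7 were higher and 1 to 4 lower when each library was left out.

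The T cell receptor list had a smaller share of higher and a larger share of lower calls than all genes, and its direction depended on the scaling. Of its 27 genes, 3 were higher and 6 lower (11.1% and 22.2%, against 16.8% and 14.4%). With the correction 2 were higher and 7 lower (7.41% and 25.9%, against 10.1% and 14.1% of all genes). Scaled by total counts alone, 7 were higher and 4 lower, beside 2988 and 1977 of all genes. CD3E was at -0.04, the adaptor LAT at 0.47 ± 0.10 (0.34 with the correction) and the phosphatase PTPRC, or CD45, at -0.51 ± 0.15 (-0.21). In the NOTCH1 pathway, which is active in most T cell leukemias, 7 of 23 were higher (30.4%, against 16.8% of all genes) and 0 lower, and 6 (26.1%, against 10.1%) and 2 with the correction, with NOTCH3 at 0.38 ± 0.03 (0.22) and the co-activator MAML1 at 0.38 ± 0.04 (0.27). Of 28 interferon response genes 12 were lower (42.9%, against 14.4% of all genes) and 3 higher, and 10 (41.7%, against 14.1%) and 3 of 24 with the correction, including the DNA sensor IFI16, from 119.0 to 150.1 CPM (median 122.6) to 71.93 to 99.33 CPM (median 84.44), at -0.56 ± 0.08 (-0.34). In the ATF4 and unfolded protein response list, with 8 of 21 lower (38.1%, and 20.0% with the correction) and 4 higher (19.0%, and 15.0%), CHAC1, a glutathione-degrading ATF4 target, rose from 3.50 to 4.74 CPM to 6.02 to 8.01 CPM (0.79 ± 0.09, adjusted p = 2.37e-05; 0.63 with the correction).

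Small structured RNAs gave few calls in all. As a class, small noncoding RNA genes had 6.93% higher and 10.6% lower of 274 tested, both below the shares of all genes (16.8% and 14.4%). Of 10 tested RNAs of the spliceosome, the signal recognition particle and related particles 6 were lower and 0 higher, and 5 and 0 with the correction. RNU4-1 and RNU4-2, near-identical copies of U4 whose reads can be split, had -0.40 and -0.41 (-0.43 and -0.37), RNU5A-1 had -0.47 (-0.32) and RNU6ATAC, of the minor spliceosome, -0.36 (-0.42). Of 100 snoRNA and scaRNA genes 11 were lower (11.0%, below the 14.4% of all genes) and 0 higher (12 and 4 of 99 with the correction), and of their 27 tested host genes 7 were higher (25.9%, against 16.8%) and 1, SNHG6, lower. With the correction 4 of 21 host genes were higher (19.0%, against 10.1%) and 2 lower, SNHG6 was no longer called (0.00, adjusted p = 1.0), and against Ctrl60 2 of 27 were higher (7.41%, against 14.7% of all genes) and 0 lower. Replication-dependent histones gave 2 higher calls of 62 (3.23%, below the 16.8% of all genes), H2BC14 and H2BC26, and 0 to 6 when each library was left out. With the correction 0 were higher and 3 of 59 lower (5.08%, below the 14.1% of all genes). By total counts alone 16 were higher, and against Ctrl60 17 of 61 were (27.9%, against 14.7% of all genes).

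DNA replication genes had 18 lower (43.9%, against 14.4% of all genes) and 3 higher (7.32%, against 16.8%) of 41, and with the correction 18 (45.0%, against 14.1%) and 4 (10.0%, against 10.1%) of 40. The origin recognition subunit ORC6 (0.30 and 0.40), the licensing factor CDC6 (0.11 and 0.20) and the polymerase POLE (0.26 and 0.16) were higher both ways. Among DNA repair genes, the end-joining factor XRCC4 had medians of 3.29 CPM in Ctrl and 2.04 CPM in hypg75s (-0.79 ± 0.15, adjusted p = 0.00158; -0.45), NBN of the MRN complex had -0.63 ± 0.12 (-0.35), and FANCA was the gene called higher (0.19 ± 0.03), without the correction only.

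Factors that define T lineage leukemia were called in both directions, and the balance turned with the correction. Of 17 tested, 5 were higher and 3 lower (29.4% and 17.6%, against 16.8% and 14.4% of all genes). With the correction 2 were higher and 4 lower (11.8% and 23.5%, against 10.1% and 14.1%). TAL1, a leukemic driver in this line, was higher (0.20, and 0.11 with the correction), as were RUNX3 (0.23), GATA3 (0.17), E2F1 (0.20) and TCF3 (0.14) without it. TCF12 (-0.43 and -0.29), ETS1 (-0.24 and -0.15) and FLI1 (-0.23 and -0.20) were lower both ways. Of 15 BCL2 family genes tested, 2 were higher and 2 lower (13.3% each, below the 16.8% and 14.4% of all genes). With the correction 1 was higher (6.67%, against 10.1%) and 2 were lower (13.3%, against 14.1%). BBC3 (-0.29 and -0.46) and BID (-0.08 and -0.17) were lower both ways, and BMF (0.26) and BCL2L1 (0.15) were higher without the correction. Antioxidant genes of the NRF2 axis had 4 lower of 13 (30.8%, against 14.4% of all genes), and 5 with the correction (38.5%, against 14.1%), with PRDX1 (-0.15 and -0.24) and TXNRD1 (-0.22 and -0.21) lower both ways and none higher.

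Levels of reference genes differed by the fit. GAPDH and ACTB were not called without the correction (-0.04, adjusted p = 0.651, and -0.02, adjusted p = 0.855), and both were called lower with it (-0.18, adjusted p = 0.0217, and -0.15, adjusted p = 0.0433). Genes of chromosome 19, which is rich in GC, had 297 higher and 31 lower calls of 1172 tested without the correction (25.3% and 2.65%, against 16.8% and 14.4% of all genes). With it they had 126 and 240 of 1145 (11.0%, near the 10.1% of all genes, and 21.0%, against 14.1%).

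Against Ctrl60, the other group at 1 g, 2379 genes were higher and 2277 lower of 16136 tested (14.7% and 14.1%, 28.9% called), and with the correction 1693 and 2338 of 15357 (11% and 15.2%, 26.2% called). The hypg75s libraries serve in both comparisons, so the values are set side by side and not counted as a second test. MT-ND6 had 1.71, SETD1B 0.82, KMT2D 0.74, MIR29B2CHG 0.62, HSP90AA1 -0.55, SLC2A1 -0.52 and THEMIS -0.80 against Ctrl60, all called. EGR1 had -1.78, and its mean level was 17.95 CPM in Ctrl60 and 8.02 CPM in Ctrl. Between Ctrl60 and Ctrl, edgeR's test called 1 gene higher, EGR1 (1.16 ± 0.06, adjusted p = 3.02e-07), and 1 lower, PHF13 (-0.28 ± 0.04, adjusted p = 0.0103), of 16109 (0.0124%), with 578 genes at an unadjusted p below 0.05.

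In direct tests with the neighbouring exposures, the number of calls depended strongly on the method. Against 20 s at 9 g, 0 genes were higher and 1 was lower in hypg75s of 16187 tested with edgeR (0.00618% called), with 2326 at an unadjusted p below 0.05, and DESeq2 called 175 higher and 94 lower. The gene was EGR1, at 9.02 CPM on average in hypg20s and 5.20 CPM in hypg75s (-0.77 ± 0.08, adjusted p = 0.000903). With the correction 51 were higher and 26 lower (0.5% called). The higher genes included MT-ND6 (0.56), MIRLET7BHG (0.34), MIR29B2CHG (0.32), KMT2D (0.31) and TTC34 (0.28), and the lower genes ARHGAP15 (-0.31), MRPS22 (-0.24) and the ribosomal proteins RPL10A, RPL21, RPL23A, RPL35, RPL39 and RPS18 (-0.21 to -0.17).

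Between 3 min and 75 s, 20 genes were higher and 90 lower in hypg3 (0.679% called of 16199), and 9 and 21 with the correction (0.195%). DESeq2 called 193 higher and 361 lower, and edgeR with RLE size factors 1 and 0. The hypg3 libraries carry numbers from a separate range, so this range and the exposure cannot be told apart. Between 5 min and 75 s, 10 were higher and 7 lower in hypg5 (0.104% of 16292), and 25 and 14 with the correction (0.252%). DESeq2 called 67 and 43. HAT1 averaged 22.6 CPM in Ctrl, 14.3 CPM in hypg75s and 21.9 CPM in hypg5, with a log2 fold change from 75 s to 5 min of 0.61 ± 0.11 (adjusted p = 0.0429; 0.52 with the correction). EGR1 was also higher at 5 min (0.47 ± 0.08, adjusted p = 0.0317). AHDC1, at 44.8 CPM in Ctrl and 68.3 CPM in hypg75s, was lower at 5 min with 56.4 CPM (-0.27 ± 0.05, adjusted p = 0.0374), as was FBXL18 with 77.8 and then 65.0 CPM (-0.26 ± 0.04, adjusted p = 0.0233). The mean of MT-ND6 was 123.1 CPM at 20 s, 182.0 CPM at 75 s, 151.4 CPM at 3 min and 199.8 CPM at 5 min. The step from 20 s to 75 s was called with the correction, and the differences of 3 min and 5 min from 75 s were not called (adjusted p = 0.166 and 0.704).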

How the data were processed

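Gene counts of fragments were deposited as a single table for the whole series. Per the labels and the submitters' processing notes, the authors trimmed reads with Trim Galore 0.6.5, aligned them to hg38 with STAR 2.7.3a and made the counts with featureCounts 2.0.1 (the file header names 2.0.3) on Ensembl 104, by read pair and with the strand of the library. Their DESeq2 1.28.1 results were not used here. Of the table, 60663 gene records were kept and 3 lines of a broken record (ANK2) were left out. Replicates were not pooled.

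From the deposited counts, libraries were scaled by TMM and filtered with filterByExpr (minimum count 10) in edgeR 4.0.16 (R 4.3.3), and each comparison was fitted on its own groups with the quasi-likelihood test and Benjamini-Hochberg adjustment at 0.05. The GC correction fitted a lowess curve (span 0.3, prior count 2) of log2 counts on exon GC content in each library and entered its deviation from the mean curve as an offset. Exon GC content came from GENCODE 29 transcripts where they covered at least 50% of a gene's exon bases, and 790 tested genes had none. Library measures (pseudocount 0.5 CPM) were compared by two-sided exact permutation tests. TPM used the exon length of the table. Promoter and miRNA sequences came from RefSeq (GRCh38.p14), and SETD1B was not in the promoter table used. Genes were named as the 10 largest rises and falls of at least 10 CPM, the 8 largest rises and falls called both with and without the correction, fixed genes of interest, and up to 2 genes per list and direction. Further list members, chosen after their values were seen, are named with them. The members and the 45 gene lists were chosen with earlier results of these data known. Scripts were tested on simulated data.

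The alternatives were RLE size factors, total counts alone, no filter, DESeq2 1.42.0, 3 surrogate variables (sva 3.50.0), a model of the libraries numbered 1 to 48, correction for exon length, Ctrl60 as the control, and each library left out in turn. The depth of 27314458 to 36404107 counts per library makes values under 1 CPM the least precise.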

Additional observations from a re-analysis of the deposited data

Results flagged for a closer look

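In 12 of 122 groups of 6 libraries tested, the highest or lowest library stood apart from the rest beyond Dixon's critical value, and some such groups arise by chance. The second Ctrl library had the lowest total count (27310000). The third Ctrl library, which also had the lowest GC contrast, had the highest level of ZCRB1 (27.02 CPM), NOC3L (20.46), CAPZA2 (33.04), ANXA1 (25.74), MRPL1 (18.44), TTK (25.48), HAT1 (26.91), IFI16 (150.1) and LMNB1 (290.4). Without it ZCRB1, NOC3L, CAPZA2, ANXA1, MRPL1, TTK, HAT1 and IFI16 were still called lower. In hypg75s a single library stood apart for KMT2D (631.1 CPM) and another for MIRLET7BHG (31.03 CPM), both above the rest, and both genes were called without these libraries.

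Direct tests between exposure times gave differences from 75 s. Against hypg20s, 1 gene was lower at 75 s. In hypg3, 20 genes were higher and 90 lower than in hypg75s, and the largest of at least 10 CPM were ZNF628 (log2 fold change 0.27), ENSG00000279602 (0.32), MNT (0.21), NDUFAF2 (-0.40), GARRE1 (-0.40) and C17orf80 (-0.39). In hypg5, 10 genes were higher and 7 lower than in hypg75s, among them HAT1 (0.61), AHDC1 (-0.27) and FBXL18 (-0.26).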

How the results depend on the processing

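No paired analysis was possible because the groups share no replicate numbers. Against Ctrl, 2738 genes were higher and 2348 lower, against 2416 and 2623 with DESeq2, 2515 and 2539 with RLE size factors, and 2988 and 1977 by total counts. The higher count was 1561 with the GC correction, 1636 with the GC content of the longest transcript (chosen after seeing the data) and 1693 with Ctrl60 and the correction. The lower count was 4228 with 3 surrogate variables (3868 higher). Past 2-fold, 21 higher genes became 34 with surrogate variables, 34 with Ctrl60, 37 with Ctrl60 and the correction, 73 with no filter and 52 in the model of libraries 1 to 48. The 3 lower genes became 6 with Ctrl60, 7 with Ctrl60 and the correction, 5 with either GC correction, 27 with no filter and 12 in the larger model. Leaving out each library gave 2248 to 2572 higher, 1952 to 2450 lower, and past 2-fold 19 to 43 higher and 3 to 5 lower. The count past 2-fold moved most without Ctrl libraries 1 (35), 2 (43) and 5 (39) and hypg75s library 20 (32) for the higher genes, and without Ctrl library 4 and hypg75s libraries 19, 21 and 23 (5 each) for the lower.

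Against hypg20s, 0 higher and 1 lower became 175 and 94 with DESeq2, 51 and 26 with the GC correction, 25 and 5 with no filter, 80 and 2 by total counts, and 17 higher in the larger model. For hypg3 against hypg75s, 20 and 90 became 193 and 361 with DESeq2, 9 and 21 with the correction, 1 and 0 with RLE size factors, 7 and 25 with no filter, and 139 and 288 by total counts. For hypg5, 10 and 7 became 67 and 43 with DESeq2, 25 and 14 with the correction, 54 and 39 in the larger model, and 5 higher with no filter. The cause of these shifts was not tested.

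The GC contrast differed by 0.284 to 0.377 and the mitochondrial share by 0.381 to 0.456 percentage points when each library was left out, and both stayed below an adjusted p of 0.05. The pseudogene share differed by 0.0223 to 0.0335, and passed the threshold without the second Ctrl library. Total counts differed by 1640000 with Ctrl60 in place of -1427000, with neither called.

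Besides SCAF1 and HMG20B, which were called lower with the correction and not followed through the other alternatives, signs turned in a few weakly changed genes among those named by rule, with values given for Ctrl60 with the correction, the correction, and the correction by longest transcript. They were TMEM250 (-0.094, -0.090, -0.081), PPDPF (-0.152, -0.104, -0.101), KCNH2 (-0.058, -0.085, -0.091), PIM3 (-0.114, -0.101, -0.101) and MAU2 (-0.0, -0.036, -0.029). With Ctrl60 and the correction they also turned in HSPA1B (-0.104), VEGFA (-0.026), SNORA13 (0.022) and SNHG6 (0.044), and SNHG6 was at 0.0 with the correction. The genes named as the largest rises and falls kept their direction and call under every alternative that could be run, as did JUN, MYC, EGR1, HSPH1 and SLC2A1. The GC content of whole genes was not run. Small changes at this number of libraries, and genes without a GC value, limit what can be read with the correction.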
